A study of Mus musculus with 9 samples.

Results

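Cathepsins are proteases found mainly in the lysosome. The 9 cathepsin genes described here, of 56691 genes in the deposited table, were picked by gene symbol: 7 encode cysteine proteases (*Ctsb*, *Ctsc*, *Ctsh*, *Ctsk*, *Ctsl*, *Ctss* and *Ctsz*), *Ctsd* encodes an aspartic protease and *Ctsa* a serine carboxypeptidase. RNA was sequenced from RAW264.7 cells, a mouse macrophage line that turns into multinucleated osteoclast-like cells when it is given RANKL, the ligand that drives osteoclast differentiation. The control group received no stimulus, the RANKL group received RANKL, and the RANKL + UD group received RANKL together with uridine (UD), a pyrimidine nucleoside. Each group had 3 libraries, labelled biological replicates, taken after 3 days. The methods give 50 ng/mL for RANKL and do not name the UD dose used for these libraries. The groups come from 1 cell line and nothing says how the cultures were separated, so the p-values measure the spread between these libraries.

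A cathepsin is made as an inactive proenzyme, receives a mannose 6-phosphate tag, is carried to the lysosome by sorting receptors, and is activated there by cleavage. Cystatins and stefins bind and block the cysteine cathepsins. Osteoclasts release cathepsin K into the sealed acidic space under the cell, where it cuts the collagen of bone, while macrophages rely on cathepsins S, L, B, D and others to digest what they take up and to trim antigens.

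Each library held between 15951800 and 19746862 counted reads, with a median of 19182637. The macrophage identity of the line was visible in every library: all 7 macrophage markers passed the expression filter described below, and their summed level was 8954 to 9553 FPKM in control, 2492 to 2728 with RANKL and 2164 to 2301 after RANKL + UD. *Lyz2*, the lysozyme gene, made up most of that sum, with a mean of 8000 FPKM in control and 1431 with RANKL. Of the 7 markers, 5 fell with RANKL, while *Cd68* and *Spi1* rose (log2 fold changes of 0.60 and 0.64, edgeR adjusted p = 1.07e-08 and 6.73e-08), and 6 fell when UD was added, while *Adgre1* rose (0.22, 0.0142). Among all tested genes, 30.2% were called lower and 27.3% higher with RANKL, and 20.2% and 18.6% when UD was added. Of 7 osteoclast markers, 6 were tested, and their sum was 38.5 to 41.1 FPKM in control, 1162 to 1248 with RANKL and 797 to 814 after RANKL + UD. *Calcr*, the calcitonin receptor of mature osteoclasts, was at 0 in control and under 1 FPKM elsewhere. The 13 markers of osteoblasts, fibroblasts, T cells, B cells and neutrophils were all under 1 FPKM, with *Cd3e*, *Ibsp* and *Ly6g* at 0 in every library. The part that these macrophage and osteoclast marker values play in the cathepsin values was not tested, and in bulk RNA fewer cells of a type and less RNA per cell cannot be told apart.

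*Ctsk* (ENSMUSG00000028111, GRCm38 chr3:95499256-95509362) and *Ctss* (ENSMUSG00000038642, chr3:95526786-95556403) are neighbours on chromosome 3, with 17423 bases between them and 1 other gene in that space, which stayed at or below 0.27 FPKM. Since they responded to RANKL in opposite directions, the 250 bases before each RefSeq start (GRCm38.p6) are printed here, together with those of *Ctsc* (chr7:88277835-88278084), the tested member with the highest fitted change when UD was added. That change was a small rise that was not called (log2 fold change 0.09, edgeR adjusted p = 0.336), while the fitted changes of the other tested members were negative. All windows are on the + strand, *Ctsk* at chr3:95498960-95499209 and *Ctss* at chr3:95526536-95526785, and *Ctss* was added after its values were seen. The RefSeq start of *Ctsk* lies upstream of its GENCODE start. Capitals mark letters that match GAGGAA (the core bound by PU.1, a myeloid transcription factor) or TGGAAA (the core bound by NFAT factors) on either strand.
Ctsk: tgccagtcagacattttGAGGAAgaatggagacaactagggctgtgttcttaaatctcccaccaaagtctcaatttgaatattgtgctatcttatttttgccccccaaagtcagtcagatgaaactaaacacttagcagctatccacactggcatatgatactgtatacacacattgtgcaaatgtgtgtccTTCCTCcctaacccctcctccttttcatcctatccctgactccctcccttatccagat
Ctss: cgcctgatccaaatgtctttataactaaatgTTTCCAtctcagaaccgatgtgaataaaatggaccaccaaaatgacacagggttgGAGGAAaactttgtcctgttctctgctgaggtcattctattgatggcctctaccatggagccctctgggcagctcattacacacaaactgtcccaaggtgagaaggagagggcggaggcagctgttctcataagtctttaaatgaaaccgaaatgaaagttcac
Ctsc: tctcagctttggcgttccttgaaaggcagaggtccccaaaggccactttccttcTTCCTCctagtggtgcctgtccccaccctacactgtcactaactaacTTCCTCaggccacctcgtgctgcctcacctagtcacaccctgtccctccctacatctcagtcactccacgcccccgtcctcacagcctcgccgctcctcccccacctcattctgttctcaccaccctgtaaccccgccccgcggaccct
GAGGAA occurred 58 and 233 bases before the start of *Ctsk*, 164 bases before that of *Ctss*, and 149 and 196 bases before that of *Ctsc*, counted to the first base of the match. TGGAAA occurred 219 bases before the start of *Ctss*. These are common words: of 32851 RefSeq starts, 23.3% had GAGGAA and 18.6% had TGGAAA in the same window. Of the 7 members with a start in the table (*Ctsb* and *Ctsh* had none), GAGGAA was found in *Ctsc*, *Ctsk* and *Ctss*, TGGAAA in *Ctsl* and *Ctss*, and the E-box CACGTG, present at 6.02% of all starts, in *Ctsa*, *Ctsd* and *Ctsl*. The M-box TCATGTG (3.25% of starts) and the AP-1 word TGANTCA (6.75%) had 0 matches among the members. The searched words share no overlapping match in these windows.

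The levels are given as FPKM, the reads counted on a gene divided by its exonic length and by the total reads of the library, so that genes of different length can be compared. *Ctsk*, which encodes the collagen-degrading cathepsin of osteoclasts, was at 7.85, 8.74 and 8.42 FPKM in the control libraries. It stood at 1456, 1443 and 1573 FPKM with RANKL and at 897, 857 and 854 FPKM after RANKL + UD. No library of one group overlapped another group, and all RANKL + UD libraries lay between control and RANKL. By mean FPKM, *Ctsk* went from place 5489 among the 11995 tested genes in control to place 14 with RANKL, and it was at place 29 after RANKL + UD.

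*Ctss* encodes cathepsin S, which trims the invariant chain of MHC class II and keeps activity at neutral pH. It was at 795, 772 and 781 FPKM in control, 517, 499 and 524 FPKM with RANKL, and 373, 381 and 367 FPKM after RANKL + UD. The 3 groups stepped down without overlap. *Ctsl* (ENSMUSG00000021477, chr13:64359337-64370890), the gene of cathepsin L, a broad lysosomal endopeptidase, was at 111, 112 and 112 FPKM in control. With RANKL it was at 40.9, 41.1 and 43.2 FPKM, and after RANKL + UD at 33.8, 35.5 and 35.5 FPKM. It also stepped down from group to group without overlap.

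*Ctsc* (ENSMUSG00000030560, chr7:88278085-88310888) encodes cathepsin C, a dipeptidyl peptidase that activates serine proteases of immune cells. Its control libraries were at 19.8, 19.3 and 20.5 FPKM. The RANKL libraries were at 5.73, 5.87 and 5.88 FPKM and the RANKL + UD libraries at 6.07, 7.06 and 6.61 FPKM. Both stimulated groups were far below control, and the RANKL + UD libraries sat just above the RANKL libraries.

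*Ctsb* (ENSMUSG00000021939, chr14:63122462-63145923) encodes cathepsin B, which can cut both inside proteins and at their ends. It was at 299, 307 and 326 FPKM in control and at 307, 312 and 321 FPKM with RANKL. After RANKL + UD it was at 215, 225 and 224 FPKM. Control and RANKL overlapped, and the UD libraries lay below both. *Ctsz* (ENSMUSG00000016256, chr2:174427493-174439039), the gene of cathepsin Z, a carboxypeptidase, was at 329.7, 361 and 387 FPKM in control, 260.5, 281 and 290.5 FPKM with RANKL, and 265, 275 and 284 FPKM after RANKL + UD. Its stimulated groups overlapped each other and lay below control.

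*Ctsh* (ENSMUSG00000032359, chr9:90054152-90076089), the gene of the aminopeptidase cathepsin H, was the only member below the expression filter. It had 11, 21 and 7 reads in the control libraries, 1, 4 and 6 with RANKL, and 5, 0 and 6 after RANKL + UD. This was at most 0.24 FPKM, so it was not tested with the others. When no filter was used, edgeR gave an adjusted p of 0.0611 for RANKL against control and 0.0699 for RANKL + UD against control. The log2 fold changes were -1.80 ± 0.761 and -1.77 ± 0.761 (SE), and both were past 0.05 before the adjustment and not after it. The control libraries, at 0.10 to 0.24 FPKM, did not overlap the stimulated ones, which were at 0 to 0.08 FPKM.

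*Ctsd* (ENSMUSG00000007891, chr7:142375911-142388038) encodes the aspartic protease cathepsin D. It was at 202, 209.6 and 233 FPKM in control, 294, 320.4 and 329.8 FPKM with RANKL, and 232, 239 and 248 FPKM after RANKL + UD. The RANKL libraries were above all the rest, and those of RANKL + UD overlapped control at their lower end. *Ctsa* (ENSMUSG00000017760, chr2:164832873-164841032) encodes cathepsin A, or protective protein, which holds neuraminidase 1 and beta-galactosidase in a complex. It was at 129, 128 and 158 FPKM in control, 137, 148 and 153 FPKM with RANKL, and 123, 125 and 126 FPKM after RANKL + UD. Control and RANKL overlapped, and the 3 UD libraries were below both.

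**Figure D1:**
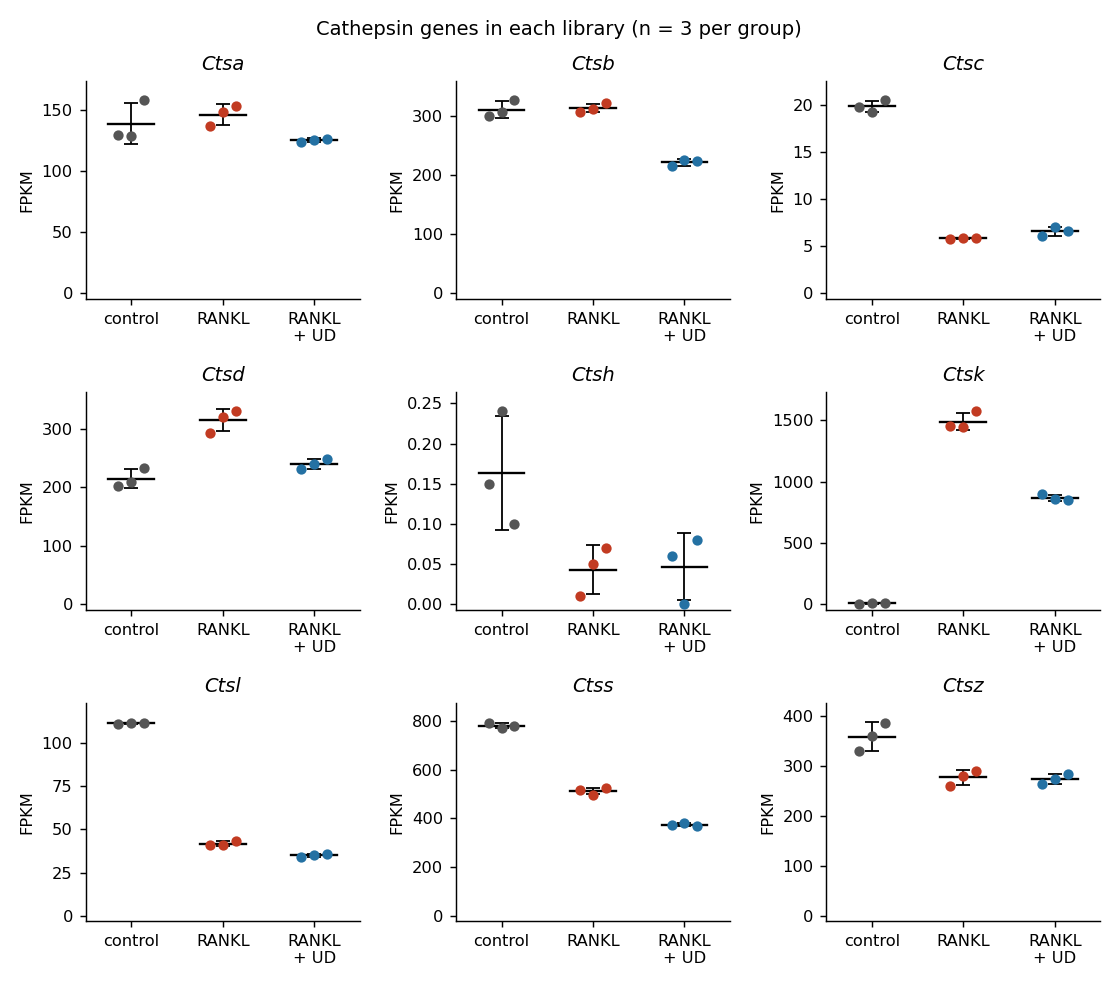
FPKM of each of the 9 cathepsin genes in the 9 libraries (points), with the mean (line) and SD (bar) of the 3 libraries per group and a separate vertical axis for each gene. *Ctsk* went from 8.34 FPKM in control to 1491 with RANKL and 869 after RANKL + UD, while *Ctss*, *Ctsl*, *Ctsc* and *Ctsz* were highest in control.

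The order of the members changed with RANKL. In all 3 control libraries the order by FPKM was *Ctss*, *Ctsz*, *Ctsb*, *Ctsd*, *Ctsa*, *Ctsl*, *Ctsc*, *Ctsk* and *Ctsh*, with no overlap between neighbours. With RANKL, *Ctsk* came first, followed by *Ctss*. *Ctsb* and *Ctsd* then exchanged places between libraries and their ranges overlapped, followed by *Ctsz*, *Ctsa*, *Ctsl*, *Ctsc* and *Ctsh*. After RANKL + UD the order was *Ctsk*, *Ctss*, *Ctsz*, *Ctsd*, *Ctsb*, *Ctsa*, *Ctsl*, *Ctsc* and *Ctsh* in all 3 libraries, so that *Ctsk* stayed first.

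The place of *Ctsl* depends on the length used. The authors divided by the union of all annotated exons, 6489 bases for *Ctsl*, which is 3.29 times the length of its transcript with the longest coding sequence. With the length of that transcript, *Ctsl* was at place 3 in control, not 6, at 367 ± 1.65 FPKM (SD, n = 3), and *Ctsb* moved ahead of *Ctsz*. That place holds for the mean alone, since *Ctsz*, at 359 ± 28.8 FPKM, was below *Ctsl* in 2 control libraries and above it in replicate 3. *Ctsk* and *Ctss* led the order in both cases with RANKL and after RANKL + UD, and comparisons of 1 gene between groups do not depend on length.

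Summed over the 9 genes, the cathepsin level was 1946 ± 70.6 FPKM in control (SD, n = 3), 3103 ± 121 FPKM with RANKL and 2146 ± 0.766 FPKM after RANKL + UD. The library values were 1893, 1918 and 2026 in control, 3018, 3051 and 3242 with RANKL, and 2146, 2145 and 2146 after RANKL + UD. The sums with UD lay just above the control range and below the RANKL range. As a share of reads, given below, the members were lower with UD than in control. With coding-transcript lengths the means were close (2379 in control and 2358 with UD). They differed by less than the control SD of the deposited sums, so no direction is read from them. *Ctsk* held 0.429% ± 0.0234 of the sum in control, 48.0% ± 0.639 with RANKL and 40.5% ± 1.12 after RANKL + UD. *Ctss* held 40.3% ± 1.71, 16.5% ± 0.512 and 17.4% ± 0.321 in the same groups. For each unit of *Ctss* FPKM there was 0.0107 ± 0.00073 of *Ctsk* in control, 2.90 ± 0.0928 with RANKL and 2.33 ± 0.0765 after RANKL + UD.

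Without *Ctsk*, the sum of the other members went down in both steps. It was 1938 ± 70.4 FPKM in control, 1612 ± 53.4 with RANKL and 1276 ± 23.8 after RANKL + UD, and the ranges of the groups did not overlap. As a share of all counted reads, the 9 genes took 0.547% ± 0.0237 in control, 0.698% ± 0.0255 with RANKL and 0.498% ± 0.004 after RANKL + UD. These sums are a description and were not tested.

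**Figure D2:**
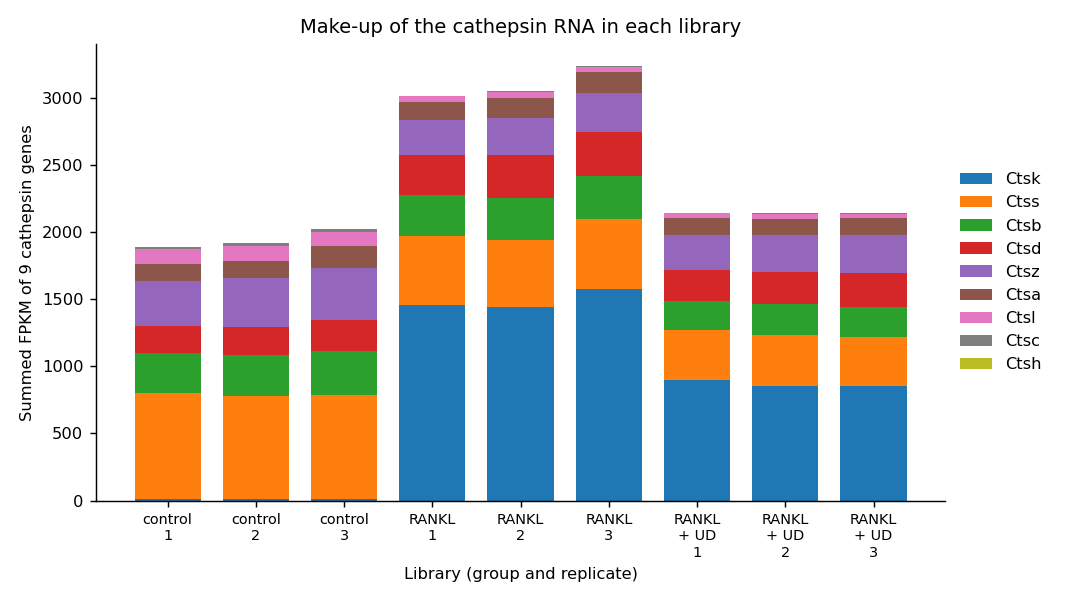
Summed FPKM of the 9 cathepsin genes in each library, stacked by gene, with the libraries on the horizontal axis. *Ctsk*, at the bottom of each bar, is hardly visible in control and made up 48.0% of the sum with RANKL and 40.5% after RANKL + UD.

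Changes were tested on the counts with edgeR's quasi-likelihood test, and a gene was called at a Benjamini-Hochberg adjusted p under 0.05 over 11995 genes with at least 1 FPKM in at least 3 libraries. Of the 9 members, 8 were tested, and each of these had at least 5.73 FPKM in all 9 libraries. The test rescales the libraries by TMM, which FPKM does not, so that fitted changes differ slightly from ratios of FPKM. The 3 comparisons share libraries and are given side by side.

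RANKL against control asks how the family changes during osteoclast differentiation. Of the 8 tested members, 3 rose and 4 fell, beside 27.3% of all tested genes called higher and 30.2% called lower (57.6% in either direction). Their median log2 fold change was -0.09, and that of all tested genes was -0.03. For 6 of the 8 the libraries did not overlap, 2 of them higher and 4 lower, beside 22.9% and 38.8% of all genes. *Ctsk* rose 189.7-fold, a log2 fold change of 7.57 ± 0.0678 (SE, 95% interval 7.43 to 7.71, edgeR adjusted p = 1.7e-25). By size of rise it was number 40 of the tested genes.

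*Ctsd* rose 1.56-fold (log2 fold change 0.64 ± 0.0555, edgeR adjusted p = 2.58e-09). *Ctsa* was called higher by 0.16 ± 0.064 (edgeR adjusted p = 0.0328), but its libraries overlapped, and the call was lost in 7 of 17 alternatives, such as total counts without further scaling (adjusted p = 0.311) and leaving out control replicate 1 (0.153), control replicate 2 (0.19), RANKL replicate 2 (0.0906) or RANKL replicate 3 (0.121). *Ctsb* was not called, with a log2 fold change of 0.10 (95% interval 0.01 to 0.19, edgeR adjusted p = 0.0604). It was called in 5 of 17 alternatives, among them DESeq2 (0.0147) and leaving out control replicate 3 (0.0055).

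The 4 members that fell encode cysteine proteases, as do *Ctsk*, which rose, and *Ctsb*, which was not called. *Ctsc* fell by 1.68 ± 0.0642 on the log2 scale, or 3.21-fold (edgeR adjusted p = 2.84e-15), and *Ctsl* fell by 1.33 ± 0.0449, or 2.52-fold (3.32e-16). *Ctss* fell by 0.52 ± 0.0434, or 1.44-fold (edgeR adjusted p = 1.3e-09), and *Ctsz* fell by 0.29 ± 0.056, or 1.22-fold (0.000164). *Ctsk* and its neighbour *Ctss* thus moved in opposite directions.

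RANKL + UD against RANKL asks what uridine changes in stimulated cells. Of the 8 tested members, 6 fell and 0 rose (5 fell with limma, where *Ctsa* was not called), beside 20.2% of all tested genes called lower and 18.6% called higher (38.8% in either direction). The median log2 fold change was -0.41 for the members and 0.005 for all tested genes, whose median size of change was 0.207. For 7 of the 8 the libraries did not overlap, 6 lower and 1 higher, beside 17.6% and 34.1% of all genes. *Ctsk* fell 1.82-fold, by 0.86 ± 0.0475 on the log2 scale (95% interval of the change -0.96 to -0.77, edgeR adjusted p = 1.92e-11), and it was number 416 of the tested genes by size of fall.

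The other falls were smaller than that of *Ctsk*, and their intervals did not reach its interval. *Ctsb*, not called for RANKL against control, fell by 0.59 ± 0.0448, or 1.503-fold (edgeR adjusted p = 2.15e-09). *Ctss* fell by 0.54 ± 0.0436, or 1.46-fold (4.41e-09). *Ctsd* fell by 0.48 ± 0.0553, or 1.39-fold (7.34e-07). *Ctsl* fell by 0.34 ± 0.045, or 1.27-fold (edgeR adjusted p = 3.87e-06), and *Ctsa* by 0.31 ± 0.0641, or 1.24-fold (0.000614). The members that fell with UD thus included *Ctsk* and *Ctsd*, which were higher with RANKL than in control, and *Ctss* and *Ctsl*, which were lower.

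*Ctsc* and *Ctsz* were not called when UD was added. *Ctsc* had a log2 fold change of 0.09 (95% interval -0.05 to 0.23, edgeR adjusted p = 0.336), although its 3 libraries with UD lay above those with RANKL alone, and with total counts as the scaling it was called higher (0.17, adjusted p = 0.047). *Ctsz* had -0.10 (95% interval -0.22 to 0.02, edgeR adjusted p = 0.171).

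RANKL + UD against control shows how far the treated cells were from unstimulated ones. Of the 8 tested members, 2 were called higher and 5 lower, beside 26.7% and 27.3% of all tested genes (54% in either direction), and the median log2 fold change was -0.44 for the members and -0.002 for all tested genes. For 7 of the 8 the libraries did not overlap, 1 higher and 6 lower, beside 29.5% and 30.4% of all genes. *Ctsk* was still 104.2-fold higher than in control (log2 fold change 6.70 ± 0.0662, edgeR adjusted p = 1.19e-24). *Ctsl* was 3.19-fold lower (1.23e-17), *Ctsc* 3.02-fold lower (7.21e-15) and *Ctss* 2.09-fold lower (1.09e-14). *Ctsb* was 1.40-fold lower (edgeR adjusted p = 7.08e-09) and *Ctsz* 1.31-fold lower (5.21e-06).

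*Ctsd* was called higher than control by 0.16 ± 0.0555 (edgeR adjusted p = 0.0179), with overlapping libraries, and the call was lost in 5 of 17 alternatives, among them leaving out control replicate 1 (0.101), control replicate 2 (0.0754) or RANKL + UD replicate 3 (0.0889). *Ctsa* was not called (log2 fold change -0.14, 95% interval -0.28 to -0.01, edgeR adjusted p = 0.0633). It was called lower in 4 of 17 alternatives, 2 of which left out control replicate 1 (0.0273) or control replicate 2 (0.0221).

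**Figure D3:**
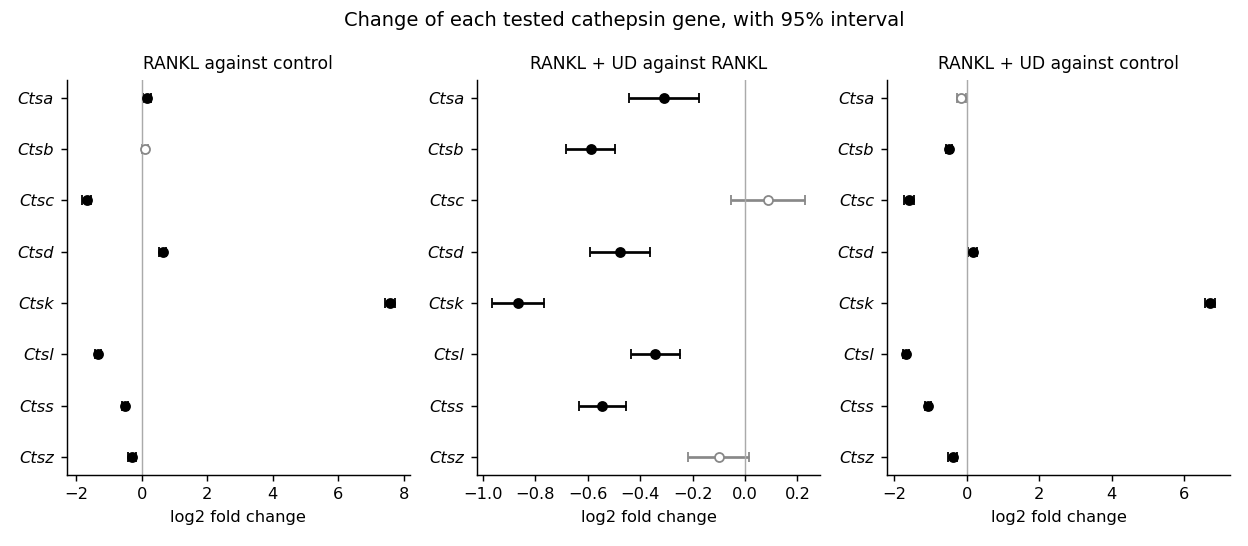
Log2 fold change of the 8 tested cathepsin genes in the 3 comparisons, with 95% intervals; filled points were called by edgeR at an adjusted p under 0.05 and the horizontal scale differs between panels. In RANKL + UD against RANKL, 6 of 8 points were called and all 6 lie below 0, from -0.31 for *Ctsa* to -0.86 for *Ctsk*.

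Some of these genes overlap others in the genome. The libraries were strand-specific per the labels, but whether the reads were counted by strand is not stated. By gene span in the deposited coordinates, *Ctsa* overlaps *Pltp* by 1515 and *Neurl2* by 584 bases on the opposite strand, *Ctsb* overlaps *Fdft1* by 774 and *Ctsz* overlaps *Nelfcd* by 10. Mean counts were 1138 for *Pltp* and 181.3 for *Neurl2* against 11722 for *Ctsa*, 1141 for *Fdft1* against 31150 for *Ctsb*, and 446.9 for *Nelfcd* against 7940 for *Ctsz*. On the same strand, where strand cannot separate reads, *Ctsd* overlaps *Gm49369* by 6757 bases of span and *Ctss* overlaps *Hmgb1-ps5* by 557. These partners reached at most 3.14 and 4.82 FPKM. *Ctsl* overlaps *Gm49230* by 395 bases on the same strand and *Gm47123* by 1971 on the opposite strand, both at 0 FPKM in every library. How far shared reads enter the values was not tested.

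Most other cathepsin genes of the mouse had no reads. Of 14, 3 passed the filter, 10 were at 0 in every library, and *Ctsw* reached 0.08 FPKM in 1 RANKL library. All 3 tested genes fell with RANKL, beside 30.2% of all tested genes called lower. *Ctsf*, a lysosomal cysteine protease, was at 15.0 ± 0.658 FPKM in control, 11.3 ± 0.824 with RANKL and 7.14 ± 0.301 after RANKL + UD (SD, n = 3). It fell by 0.33 with RANKL and by a further 0.74 on the log2 scale with UD (edgeR adjusted p = 0.000279 and 4.79e-08). *Ctso* went from 8.68 ± 0.151 FPKM in control to 3.79 ± 0.288 with RANKL (-1.11, edgeR adjusted p = 3.75e-10) and was at 3.83 ± 0.226 with UD (-0.07, 0.586). *Ctse*, an aspartic protease related to cathepsin D, went from 6.52 ± 0.840 to 0.967 ± 0.215 FPKM (-2.67, edgeR adjusted p = 1.6e-11) and was at 1.16 ± 0.185 with UD (0.19, 0.499). *Ctse* and the member *Ctsd*, which both encode aspartic proteases, thus moved in opposite directions with RANKL.

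Of 17 cystatin and stefin genes, 3 were tested and the other 14 were under 1 FPKM in every library. *Cst3* encodes cystatin C, the main secreted inhibitor. It was at 536, 550.1 and 537 FPKM in control, 314, 329 and 345 FPKM with RANKL, and 272, 291 and 296 FPKM after RANKL + UD. It fell in both steps, by 0.63 and by 0.29 on the log2 scale (edgeR adjusted p = 2.71e-10 and 5.55e-05). *Cstb* encodes stefin B, which inhibits cathepsins in the cytosol. It was at 134, 127 and 127 FPKM in control, 495, 464 and 538 FPKM with RANKL, and 392, 333 and 311 FPKM after RANKL + UD. It rose 4.10-fold with RANKL (edgeR adjusted p = 1.41e-15) and fell 1.53-fold when UD was added (5.55e-07), the same pair of directions as *Ctsk*. *Cst7* encodes cystatin F, which acts inside the lysosome on cathepsin C. It was at 4.70, 4.11 and 4.51 FPKM in control, 4.48, 6.35 and 4.97 FPKM with RANKL, and 12.0, 10.1 and 11.0 FPKM after RANKL + UD. With UD it rose 1.98-fold over RANKL (log2 fold change 0.98 ± 0.16, edgeR adjusted p = 4.93e-05), whereas RANKL alone was not called (0.34, 0.108).

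All 19 genes of cathepsin processing and sorting were tested. With RANKL 9 rose, 6 fell and 4 were not called, beside 27.3% of all tested genes called higher and 30.2% called lower. With UD added 7 rose, 8 fell and 4 were not called, beside 18.6% and 20.2%. The median log2 fold change was -0.03 in both comparisons, and that of all tested genes was -0.03 and 0.005. *Lgmn* encodes legumain, which cleaves procathepsins. It was at 241 ± 23.7 FPKM in control, 109 ± 3.23 with RANKL and 75.5 ± 1.19 after RANKL + UD, and fell by 1.06 and 0.62 on the log2 scale (edgeR adjusted p = 9.76e-13 and 4.13e-08).

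Among the genes of the mannose 6-phosphate tag, *Gnptab*, which encodes the phosphotransferase, rose from 25.9 ± 1.61 to 61.8 ± 0.762 FPKM with RANKL and fell to 50.6 ± 1.00 with UD (1.34 and -0.37, edgeR adjusted p = 2.05e-15 and 3.49e-06). *Nagpa*, which encodes the uncovering enzyme, fell by 0.49 with RANKL and rose by 0.32 with UD (edgeR adjusted p = 0.000664 and 0.0285), and *Gnptg* was not called in either comparison (0.637 and 0.928). The receptors that read the tag both rose with RANKL. *M6pr*, the cation-dependent receptor, was at 93.7 ± 1.79 FPKM in control and 144 ± 2.02 with RANKL, and rose again to 194 ± 3.08 with UD (0.71 and 0.34, edgeR adjusted p = 7.85e-12 and 2.06e-06). *Igf2r*, the cation-independent receptor, rose from 21.3 ± 0.417 to 64.3 ± 4.80 FPKM with RANKL and was at 60.7 ± 0.605 with UD (1.68 and -0.17, edgeR adjusted p = 9.75e-17 and 0.012), with overlapping libraries in the latter comparison.

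The sortilin-type receptors differed from each other. *Sorl1* fell from 13.0 ± 0.505 to 1.82 ± 0.191 FPKM with RANKL and rose to 3.56 ± 0.205 with UD (-2.75 and 0.88, edgeR adjusted p = 6.67e-18 and 1.47e-08). *Sort1* was at most at 1.51 FPKM in a library and rose in both steps (0.52 and 0.59, edgeR adjusted p = 0.0108 and 0.00429). Of the GGA adaptors, which load the receptors into transport vesicles, *Gga1* was not called in either comparison, *Gga2* rose with RANKL (0.61, edgeR adjusted p = 1.73e-07) and *Gga3* fell with RANKL and rose with UD (-0.52 and 0.34, 1.1e-05 and 0.00224).

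The partners of cathepsin A also split. *Glb1*, which encodes beta-galactosidase, rose from 17.9 ± 1.55 to 36.8 ± 1.31 FPKM with RANKL and was at 33.3 ± 0.350 with UD (1.13 and -0.23, edgeR adjusted p = 1.08e-12 and 0.00378). *Neu1*, which encodes neuraminidase 1, went the other way, from 16.1 ± 0.395 to 10.2 ± 0.564 and then 12.7 ± 0.725 FPKM (-0.57 and 0.23, edgeR adjusted p = 3.89e-07 and 0.013). The remaining genes of the list encode a saposin precursor and lysosomal peptidases or hydrolases. Of these, *Psap*, *Tpp1* and *Scpep1* rose with RANKL by 0.29, 0.32 and 0.39 and fell with UD by 0.14, 0.24 and 0.39 on the log2 scale. *Ppt1*, which encodes a thioesterase, fell from 94.9 ± 3.55 to 27.3 ± 0.128 FPKM with RANKL and rose to 38.1 ± 0.218 with UD (-1.71 and 0.40, edgeR adjusted p = 1.06e-17 and 1.07e-06). *Dpp7* was not called in either comparison, and *Prcp* was called only for its fall with UD (-0.20, edgeR adjusted p = 0.0111). Over these 3 lists, 39 changes were called in RANKL against control and RANKL + UD against RANKL. All 39 had the same direction in mean FPKM, which is scaled by total counts alone. That scaling moves the median of all genes by -0.087 and 0.086, less than the smallest of these changes (-0.14, *Psap* with UD). The match was therefore given beforehand and is no separate check of the calls.

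**Figure D4:**
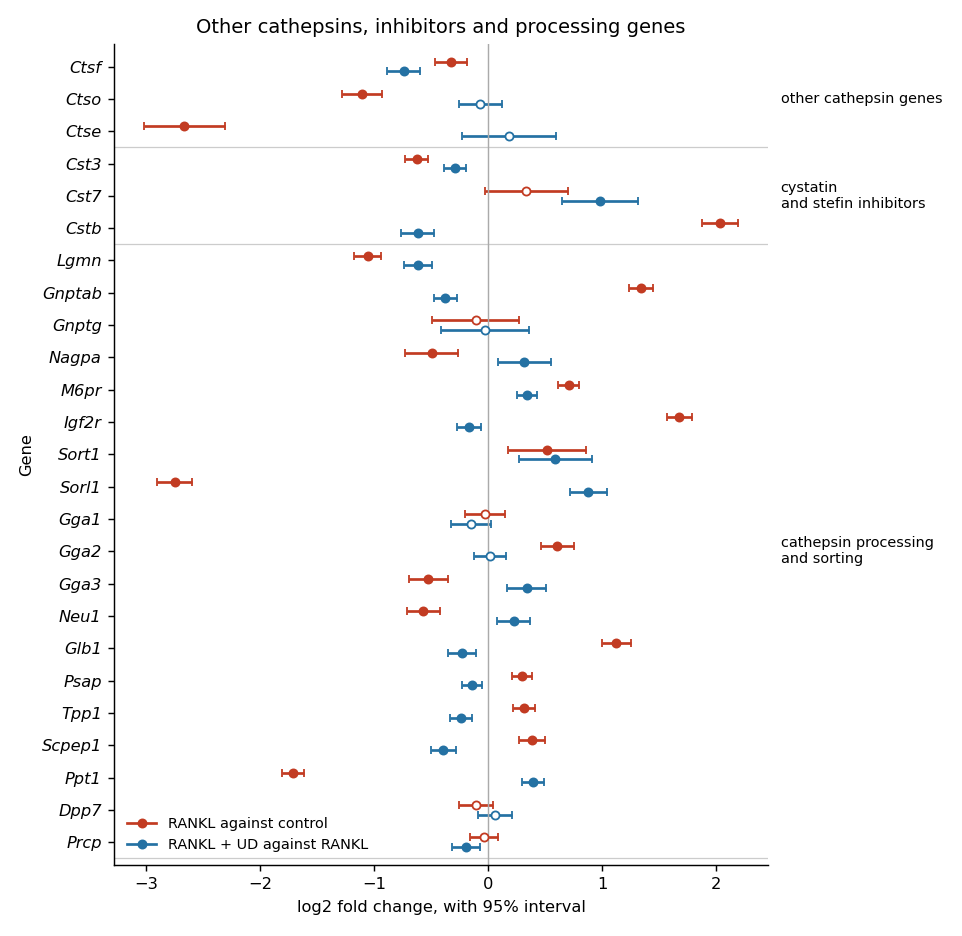
Log2 fold change (horizontal axis, with 95% intervals) of the tested genes among other cathepsins, inhibitors and processing genes, for RANKL against control (red) and RANKL + UD against RANKL (blue); filled points were called at an adjusted p under 0.05. *Cstb* stands at 2.04 with RANKL and -0.62 when UD was added, and *Sorl1* at -2.75 and 0.88.

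The genes whose pattern over the 9 libraries was most like that of *Ctsk* were found by the root mean square difference of centred log2 CPM (reads of a gene scaled to the library total rescaled by TMM, prior count 2). The closest of 11994 genes were *Rufy4* (0.10), *Cd84* (0.15), *Mst1r* (0.245), *Nyap2* (0.27) and *Grk3* (0.28). All 5 had 0 reads in every control library, so their distance depends on the prior count. Their levels were low beside *Ctsk*: *Rufy4*, the first, was at 7.93 ± 0.257 FPKM with RANKL and 4.92 ± 0.489 after RANKL + UD. Among the 10070 genes with at least 1 FPKM in every library, a restriction chosen after seeing the data, the closest were *Serpinb6b* (0.74), *Atp6v0d2* (1.00), *Car2* (1.31), *Rgs16* (1.47) and *Ccr1* (1.58). The measure is weighted toward the large step from control to RANKL: *Car2*, the carbonic anhydrase II gene, had a log2 fold change of 4.39 in RANKL against control and of 0.29, not a fall as in *Ctsk*, when UD was added.

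*Atp6v0d2*, which encodes a subunit of the osteoclast proton pump, was at 8.85 ± 0.178 FPKM in control, close to *Ctsk*, and at 340 ± 2.99 with RANKL and 232 ± 4.55 after RANKL + UD. *Serpinb6b*, a serine protease inhibitor gene, was at 1.93 ± 0.407, 177 ± 3.46 and 58.9 ± 1.43 FPKM in the same groups. The cathepsin nearest to *Ctsk* by this measure was *Ctsd*, at a difference of 3.17 and place 1741. *Ctsd* was also the other member whose libraries rose with RANKL and fell with UD without overlap.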

How the data were processed

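RNA of 9 RAW264.7 libraries was analysed, 3 per group by their labels; in the value columns the RANKL group is named Model. For each gene the authors deposited raw read counts, its exonic length, and FPKM computed from these with the library total. Recomputed FPKM lay within 0.01 of the deposited value for 100% of genes. The submitters' processing notes name the build mm10; aligner, counter and annotation are not given in the sources used here. Of 52073 genes shared with GENCODE M21 (GRCm38), only 1435 had identical coordinates in the deposited table. The coordinates differ for all 9 members, so those of GENCODE M21 are printed. All per-sample columns were used, and the deposited annotation was used only for names and lengths.

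Counts were tested in R 4.3.3 with edgeR 4.0.16 (TMM, quasi-likelihood, all 9 libraries in 1 fit, Benjamini-Hochberg adjustment) after the filter of 1 FPKM in at least 3 libraries. DESeq2 1.42.0, limma 3.58.1 on log2(FPKM + 1) or log2(FPKM + 0.1), RLE size factors, total counts, no filter, 6 libraries, a replicate block and leaving out each library were alternatives. Tables and figures used pandas 2.3.3, numpy 2.4.6 and matplotlib 3.10.9 under Python 3.11.15. Scripts were tested on simulated data. Totals of 15951800 to 19746862 reads limit precision for genes with few counts. Libraries of 1 group differed by more than sampling noise (chi-square per degree of freedom 3.02 to 9.92). All members, every tested gene of the partner lists, and the 5 genes most like Ctsk are named. Members and lists were chosen with earlier results of these data known. The labels give no batch. Protein sequences were not used here.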

Additional observations from a re-analysis of the deposited data

How the results depend on the processing

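Each of the 24 fitted log2 fold changes of the members was recomputed under 17 alternatives. Of 408 values, 384 kept their direction and their side of the threshold, 14 lost the threshold, 10 gained it and 0 changed sign. Those that crossed it belong to Ctsa in all 3 comparisons, Ctsb in RANKL against control, Ctsc in RANKL + UD against RANKL, and Ctsd in RANKL + UD against control, and the cause was not tested. For RANKL + UD against RANKL, Ctsa was at the threshold with limma (adjusted p = 0.05 and 0.0504). The number of members called higher in RANKL + UD against RANKL was 0 and became 1 (Ctsc) with total counts. The number called higher in RANKL + UD against control was 2 and became 1 with limma at either pseudocount, and it ranged from 1 to 2 when single libraries were left out. The number called lower in RANKL + UD against RANKL went from 6 to 5 with limma, that called higher in RANKL against control from 3 to between 2 and 4, and that called lower in RANKL + UD against control from 5 to 6 with no filter, with the block, or without control replicate 1 or 2. The number called lower in RANKL against control was 4 under every alternative run. Total counts without further scaling moved the median of all genes by -0.087 in RANKL against control and by 0.086 in RANKL + UD against RANKL, and the share of called genes that were higher went from 47.5% to 36.9% and from 48% to 66.2%.

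Libraries with the same replicate number were at most weakly alike. For the 9 pairs with the same number, deviations from the group means correlated at -0.0194 to 0.0984. For the 18 others they correlated at -0.102 to 0.0464. The highest values were those of control replicate 1 with RANKL + UD replicate 1 (0.0984) and RANKL replicate 1 (0.0855). In RANKL against control, a block gave 3346 genes called higher and 3694 lower, beside 3278 and 3628 without it. Whether the numbers mark shared cultures was not tested. With the replicate number as a block, Ctsb was called in RANKL against control (0.10, edgeR adjusted p = 0.0389) and Ctsa in RANKL + UD against control (-0.14, 0.0282), and no other call of a member changed.

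The summed level depends on the unit. As TPM it was 6556 in control, 10196 with RANKL and 7133 after RANKL + UD, and with the length of the transcript with the longest coding sequence, an alternative added after seeing the data, it was 2379, 3370.4 and 2358. As a share of reads, the sum after RANKL + UD was below control and not above it (0.4931% to 0.5004% beside 0.5295% to 0.5741%). With that length, the means of control and RANKL + UD differed by less than the control SD of the deposited sums (70.6 FPKM). No direction is read from them. The share of Ctsk was 0.231%, 32.3% and 26.4% of the members' counts, and 0.351%, 44.2% and 36.9% of the sum with that length, in the same order of groups. Among the members, Ctsh had the fewest reads, at most 21 in a library.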
